A study of Mus musculus with 12 samples.

Results

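The transcripts described are those of 9 mouse genes that act in 1 sperm pathway: the ADAM genes Adam1a, Adam2, Adam3, Adam5 and Adam32, the testis chaperone genes Clgn, Calr3 and Pdilt, and Ace. Their contigs, the reference transcripts to which reads were assigned, were taken by gene symbol from the annotation column that the authors deposited. Of 12114 contigs and 7010 gene symbols in the count table, 19 contigs and 9 symbols were members, and all 19 passed the filter on low counts. Nanopore direct RNA sequencing, which reads native poly(A) RNA one molecule at a time, was run on spermatids sorted by flow cytometry from the testes of adult males. Round spermatids (RS) are the haploid products of meiosis, and elongated spermatids (ES) are their descendants with a compacting nucleus and a growing tail. Males were either Tent5c wt/wt or Tent5c dcat/dcat, a knock-in on a C57BL/6 background in which TENT5C, a cytoplasmic poly(A) polymerase, is catalytically inactive in all cells. The 4 groups (RS wt/wt, RS dcat/dcat, ES wt/wt and ES dcat/dcat) held 3 libraries each, and every library was a pool of RNA from 3 mice. The methods give no more mice per genotype than the pools of 1 stage need, so that RS and ES came from the same animals, but not which animals made which numbered pool. The p-values measure the spread between these pools.

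ADAM proteins are membrane proteins with a disintegrin and a metalloprotease domain, and those of the testis reach the sperm surface after folding in the endoplasmic reticulum (ER). ADAM2 pairs with ADAM1A in the ER or with ADAM1B on sperm to form fertilin, and ADAM3 is needed for sperm to pass from the uterus into the oviduct and to bind the zona pellucida. Calmegin, the product of Clgn, is a testis homologue of calnexin that is needed for fertilin assembly. CALR3 and PDILT are testis homologues of calreticulin and protein disulphide isomerase that are needed for mature ADAM3. ACE, angiotensin converting enzyme, has a testis form transcribed from a start inside the gene, and sperm without it have mislocalised ADAM3.

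Total counts per library ran from 337287 to 1359427, and a floor of 3 counts corresponded to 2.21 to 8.89 counts per 1e+06 counts (CPM) before scaling. Spermatid markers such as Prm1 and Tnp1 were present in every library, with summed levels of 26100 to 53200 CPM in RS and 177000 to 212000 CPM in ES for all 11 genes listed. Not every gene of this list followed the sum. With the scaling and test used below, 12 of its 16 contigs were higher in ES in wt/wt. The 2 lower ones were Spaca1-201 (log2 -0.85) and Acrv1-201 (log2 -0.68). In dcat/dcat 12 were higher and 1 lower (Spaca1-201, log2 -0.77). Meiotic markers summed to 1760 to 2020 CPM in RS and 985 to 1140 CPM in ES (12 of 15 genes counted). All marker sums here are CPM before scaling. The median log2 change of the meiotic contigs between stages was -1.39 in wt/wt and -1.17 in dcat/dcat by total counts. With the scaling used below for contigs it was -0.67 and -0.52. Markers of testicular somatic cells were higher in ES: Leydig markers summed to 172 to 770 CPM against 16.3 to 55.9 CPM in RS (5 of 10 genes counted), Sertoli markers to 216 to 436 against 12.2 to 64.5 CPM (6 of 12), and macrophage markers to 70.1 to 135 against 5.43 to 13.2 CPM (2 of 7). No contig of the 7 endothelial or the 3 peritubular markers was counted (0 of each list). The part of somatic RNA in the changes between stages was not tested. Tent5c-201 had 229 to 660 counts in every library, as a point mutation leaves the transcript in place, so it does not check the genotype. A library pattern touched some contigs: the 4 libraries numbered replicate 1 and ES wt/wt replicate 3 (set A, 5 libraries) had at most 5 counts each for 10 contigs of 10 genes that had at least 10 counts in each of the other 7 libraries (set B), while the reverse held for 1 contig. Adam3-207 was among the 10. The sets were defined after these counts were seen, and the cause was not tested. Set A held a single library each of RS wt/wt, RS dcat/dcat and ES dcat/dcat, and set B a single library of ES wt/wt. Fits within a set therefore rest on single libraries in some groups, and their changes are given by size.

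Between RS and ES, the members moved in both directions. In wt/wt, 7 of 19 contigs were higher in ES (36.8%, where 23.8% of all 11831 contigs tested were higher) and 3 were lower (15.8%, against 16.5%), by edgeR's quasi-likelihood test at an adjusted p of 0.05 or less. In dcat/dcat, 9 contigs were higher (47.4%, against 24% of all contigs) and 3 lower (15.8%, against 16.9%). The contigs of Ace, Calr3 and Adam1a, and the main contig of Adam3, were higher in ES in both genotypes, whereas the main contigs of Adam2, Adam32 and Clgn declined. All these levels are relative, since CPM is a share of the counts of a library. The paper describes a fall in absolute transcript levels during spermatid elongation. A rise or a fall here is therefore one in relative level. Groups did not overlap for 14 of 19 contigs in wt/wt (73.7%, against 53.3% of all contigs) and for 14 in dcat/dcat (73.7%, against 50.9%). The median log2 change over the 19 contigs was 0.45 in wt/wt and 0.51 in dcat/dcat, beside -0.24 and -0.18 over all contigs tested. In bulk libraries, a change in the share of cells that carry a transcript and a change in RNA per cell cannot be told apart.

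The direction between stages depended on the scaling for some members. CPM were scaled by TMM, which sets the libraries to a common level of the middle bulk of contigs. With total counts alone, the median log2 change over all contigs shifted by -0.71 in wt/wt and by -0.66 in dcat/dcat, and the share of all calls that were higher in ES went from 59% to 26.5% in wt/wt and from 58.7% to 28.2% in dcat/dcat. The members then gave 6 higher and 6 lower contigs in wt/wt, and 7 higher and 7 lower in dcat/dcat. The share of all contigs called each way with total counts is not given, so these counts have no background beside them. The called changes of the Ace and Calr3 contigs, Adam1a-201, Adam2-201, Adam32-202 and Clgn-201 kept their direction and their call under both scalings. Adam3-201 stayed above 0 but was no longer called (log2 0.23 in wt/wt, adjusted p = 0.389), Pdilt-201 and Adam32-201 in wt/wt changed sign, and so did Adam5-201 and Adam5-202 in both genotypes.

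**Figure D1:**
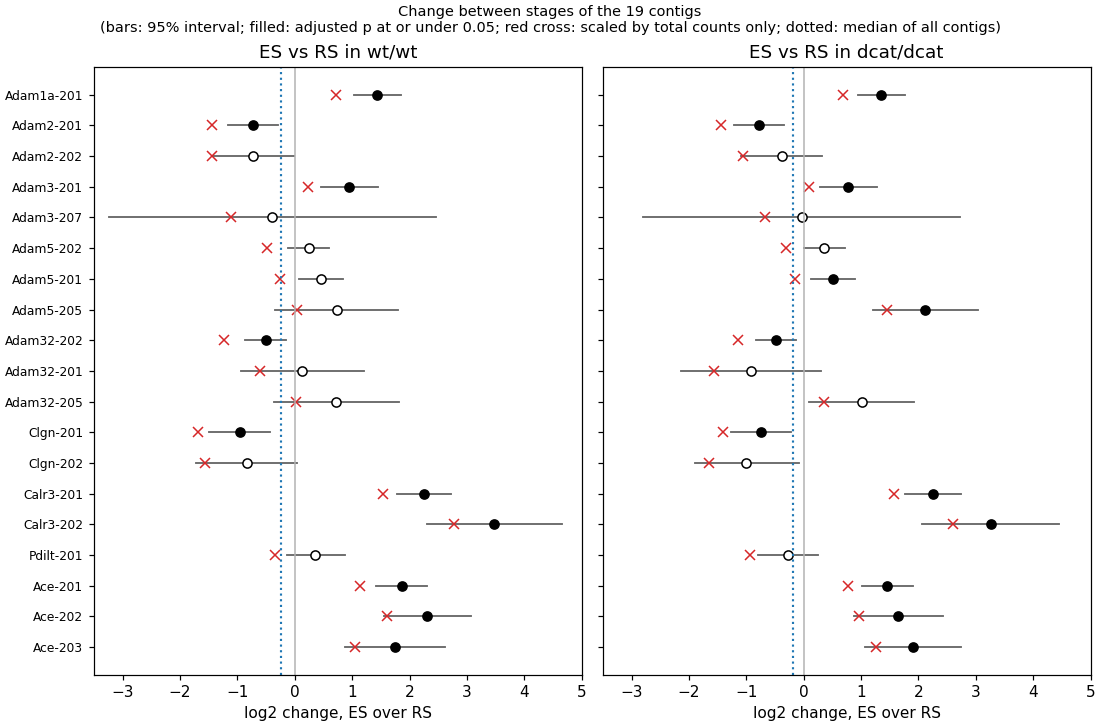
Log2 change of ES over RS for each of the 19 contigs in wt/wt (left) and dcat/dcat (right); circles are edgeR estimates with 95% intervals, filled where the adjusted p was 0.05 or less, red crosses are the estimates after scaling by total counts only, and the dotted line is the median of all contigs. The contigs of Ace and Calr3 lie right of 0 under both scalings, those of Adam5-202 and Adam5-201 lie on either side.

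Fertilin transcripts went opposite ways. Adam1a encodes fertilin alpha of the ER complex and has 1 contig here, Adam1a-201, an intronless transcript at chr5:121518576-121522071 (GRCm38). It measured 88.9, 65.5 and 77.5 CPM in the 3 RS wt/wt libraries and 211, 219 and 201 CPM in ES wt/wt. The dcat/dcat libraries gave 80.1, 65.6 and 92.3 CPM for RS and 211, 185 and 213 CPM for ES. All 6 ES libraries were above all 6 RS libraries, and the transcript rose 2.71-fold in wt/wt (log2 1.44, SE 0.192, adjusted p = 4.1e-05) and 2.54-fold in dcat/dcat (log2 1.35, SE 0.193, adjusted p = 7.9e-05). The paralogue Adam1b, whose product pairs with ADAM2 on the sperm surface, shares sequence with Adam1a, so single counts of both are uncertain. In wt/wt, Adam1b-201 fell by 1.35 (log2), from 77.1 ± 6.92 to 30.4 ± 4.26 CPM (SD, n = 3; adjusted p = 5.8e-04).

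Adam2 encodes fertilin beta, the partner of both ADAM1 proteins. Its main contig, Adam2-201 (chr14:66027329-66077733, 21 exons), measured 243, 223 and 221 CPM in RS wt/wt and 152, 112 and 152 CPM in ES wt/wt. In dcat/dcat the values were 210, 194 and 244 CPM in RS and 97.4, 150 and 132 CPM in ES. Every ES library lay below every RS library. The transcript fell 1.66-fold in wt/wt (log2 -0.73, SE 0.201, adjusted p = 0.00937) and 1.71-fold in dcat/dcat (log2 -0.78, SE 0.201, adjusted p = 0.00641). Without ES wt/wt replicate 2, the wt/wt change was -0.52 and was not called (adjusted p = 0.0957), and within set A it was -0.61. Adam2-202, a retained intron transcript that held 7.5 to 17.6% of the Adam2 counts in single libraries, had a log2 change of -0.73 in wt/wt (adjusted p = 0.0948; -0.77 and 0.0364 with the replicate number as a block) and -0.38 in dcat/dcat (adjusted p = 0.371).

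Adam3, Adam5 and Adam32 are neighbours on chromosome 8. They span chr8:24677225-24948804 in all, 271580 bases on the minus strand, with gaps of 1333 bases between Adam3 and Adam5 and 11770 bases between Adam5 and Adam32. Despite this, their main contigs did not share a direction: Adam3-201 was higher in ES, Adam32-202 lower, and Adam5-202 was called in neither genotype by the test over all 12 libraries without a block.

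Adam3 encodes ADAM3, the surface protein on which the chaperones of this pathway converge. Adam3-201 measured 552, 305 and 408 CPM in RS wt/wt and 966, 692 and 784 CPM in ES wt/wt. In dcat/dcat it measured 623, 365 and 426 CPM in RS and 902, 769 and 761 CPM in ES. In both stages and genotypes the replicate 1 library was the highest, and the stages did not overlap. The log2 change was 0.95 in wt/wt (1.93-fold, SE 0.234, adjusted p = 0.00488) and 0.78 in dcat/dcat (1.72-fold, SE 0.233, adjusted p = 0.0148). The dcat/dcat call was lost without RS dcat/dcat replicate 2 (log2 0.62, adjusted p = 0.0698) or replicate 3 (log2 0.70, adjusted p = 0.0534). Within set B the log2 change was 1.05 in wt/wt and 0.99 in dcat/dcat, and within set A it was 0.74 and 0.58.

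The second contig, Adam3-207, is annotated as a target of nonsense-mediated decay. All of its 2606 bases lie within Adam3-201, and 19 exons are identical. Beside shorter ends, the contigs differ at the end of exon 5, where Adam3-201 has 77 bases (chr8:24715526-24715602) and Adam3-207 has 70 (chr8:24715533-24715602). The window around this exon end is shown because these 7 bases are the internal sequence that separates the contigs. It holds exon sequence, then in capitals the 7 bases found only in Adam3-201, then 20 bases of the intron, and a GT follows either exon end.
Adam3 exon 5 end (chr8:24715506-24715555, minus strand, GRCm38.p6): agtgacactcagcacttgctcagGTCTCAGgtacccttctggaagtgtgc
Adam3-207 had 3, 94 and 216 counts in the wt/wt RS libraries and 2, 83 and 198 in the dcat/dcat RS libraries. In ES it had 0, 89 and 0 counts for wt/wt and 1, 63 and 65 for dcat/dcat. The 5 set A libraries thus had 0 to 3 counts of it, 0 to 0.45% of the Adam3 counts, and the 7 set B libraries 12.6 to 27.7%. Within set B, its share was 23% to 27.7% in the 4 RS libraries and 12.6% to 19.6% in the 3 ES libraries. Over all 12 libraries its log2 change was -0.39 in wt/wt with a 95% interval from -3.24 to 2.46 (adjusted p = 0.836), and in set B alone it was 0.59. In dcat/dcat it was -0.03 over all libraries (adjusted p = 0.987) and -0.04 in set B.

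Summing the counts of both contigs narrowed the gap between the sets. Adam3 as a whole measured 504, 410 and 527 CPM for wt/wt RS libraries and 571, 469 and 586 CPM for dcat/dcat RS libraries. The ES libraries gave 967, 910 and 819 CPM for wt/wt, then 912, 976 and 931 CPM for dcat/dcat. The SD of RS wt/wt was 62.2 CPM on a mean of 480, beside 124 on 422 for Adam3-201 alone. By edgeR on counts summed by gene, Adam3 rose by 0.90 (log2, SE 0.154, adjusted p = 6.2e-05 over 7706 genes and unnamed contigs) in wt/wt and by 0.79 (SE 0.153, adjusted p = 2.4e-04) in dcat/dcat.

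**Figure D2:**
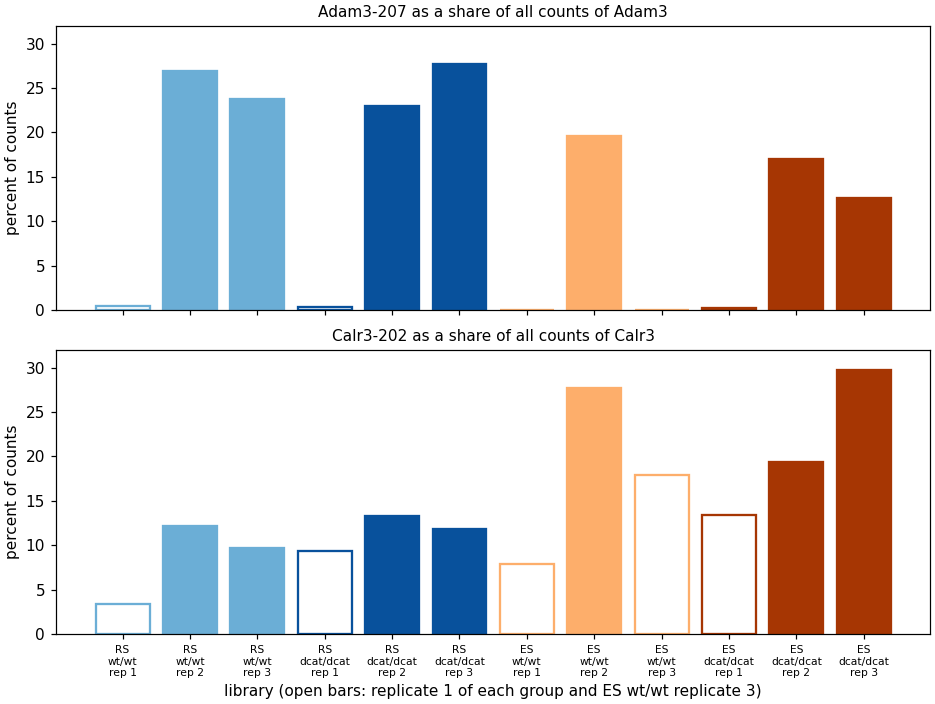
Share of the counts of Adam3 that fell on Adam3-207 (top) and of Calr3 on Calr3-202 (bottom), in percent, in each of the 12 libraries; open bars are the 5 libraries of set A. Adam3-207 is at 0 to 0.45% in all open bars and at 12.6 to 27.7% in the others. Calr3-202 was counted in both sets, at 3.45 to 17.9% in the open bars and 9.71 to 29.7% in the others. Within each group the open bars of Calr3-202 are the lower.

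ADAM5 is found in complexes with ADAM2 and ADAM3 during sperm maturation. Adam5-202 (chr8:24732985-24824369) measured 503, 400 and 480 CPM in RS wt/wt and 566, 603 and 459 CPM in ES wt/wt, with overlap. In dcat/dcat, where the stages did not overlap, RS libraries gave 548, 400 and 456 CPM and ES libraries 610, 639 and 557 CPM. Its log2 change was 0.24 in wt/wt (95% interval -0.12 to 0.60, adjusted p = 0.269) and 0.36 in dcat/dcat (0.00 to 0.72, adjusted p = 0.097; 0.0478 with the replicate number as a block). Adam5-201, whose 3′ end lies further along, differed by 0.45 in wt/wt (adjusted p = 0.0585) and rose by 0.51 in dcat/dcat (adjusted p = 0.0347). The wt/wt change was called by DESeq2 (log2 0.49, adjusted p = 0.04), by edgeR with RLE size factors (log2 0.49, adjusted p = 0.0474) and with the replicate number as a block (log2 0.46, adjusted p = 0.0253). Leaving out RS dcat/dcat replicate 2 or 3, or ES dcat/dcat replicate 2 or 3, ended the dcat/dcat call (log2 0.38 to 0.53, adjusted p = 0.138, 0.0602, 0.0803 and 0.0741). Summed over its 3 contigs, Adam5 was called in both genotypes, at 0.42 in wt/wt (adjusted p = 0.0277) and 0.55 in dcat/dcat (adjusted p = 0.00507). Within set B alone the log2 change of Adam5-202 was 0.56 in wt/wt and 0.51 in dcat/dcat. With total counts alone Adam5-202 was called lower in wt/wt (log2 -0.48, adjusted p = 0.0157).

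Adam5-205 was a rare contig, with 3, 6 and 12 counts in the wt/wt RS libraries and 3, 5 and 8 in the dcat/dcat RS libraries. In ES it had 4, 5 and 3 counts for wt/wt and 10, 9 and 16 for dcat/dcat. In CPM the ES dcat/dcat libraries (23.2, 22.5 and 27) lay above all the others, whose highest was 10.6. The contig rose from RS to ES in dcat/dcat (log2 2.12, SE 0.429, adjusted p = 0.00121), while in wt/wt the log2 change was 0.73 (adjusted p = 0.264). Its share of the Adam5 counts was 2.5 to 3.31% in ES dcat/dcat and 1.06 to 1.52% in ES wt/wt.

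Adam32, which encodes another sperm surface ADAM, declined in its main contig. Adam32-202 (chr8:24836140-24948804) measured 334, 253 and 329 CPM in RS wt/wt and 230, 223 and 191 CPM in ES wt/wt. In dcat/dcat the values were 378, 341 and 339 CPM in RS and 264, 260 and 236 CPM in ES. The stages did not overlap in either genotype. The contig fell 1.42-fold in wt/wt (log2 -0.51, SE 0.166, adjusted p = 0.0248) and 1.39-fold in dcat/dcat (log2 -0.48, SE 0.164, adjusted p = 0.0308). The calls depended on which libraries were in the fit: 5 of 6 fits that left out 1 library ended the wt/wt call (all but the one without RS wt/wt replicate 2) and 4 of 6 ended the dcat/dcat call (all but those without RS dcat/dcat replicate 3 and ES dcat/dcat replicate 1), with log2 changes of -0.63 to -0.40 and -0.52 to -0.39. Neither set of libraries alone gave the call, but each left a group with a single library. Counts summed by gene did not give it either (log2 -0.29, adjusted p = 0.112, in wt/wt and -0.27, adjusted p = 0.134, in dcat/dcat). Adam32-201 had a log2 change of 0.13 in wt/wt (adjusted p = 0.857) and -0.91 in dcat/dcat (adjusted p = 0.215). Adam32-205, a retained intron transcript of 5 exons at the 3′ end of the gene, had log2 changes of 0.72 in wt/wt (adjusted p = 0.272) and 1.01 in dcat/dcat (adjusted p = 0.0712; 0.0134 with the replicate number as a block), and its share of the Adam32 counts was 1.35 to 5.61% in RS and 4.69 to 18.2% in ES.

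The 3 testis chaperones did not move together. With TMM scaling over all 12 libraries, Clgn declined, Calr3 rose several fold, and Pdilt was not called. Clgn-201 (chr8:83389867-83428552) measured 146, 114 and 102 CPM in RS wt/wt and 61.3, 60.9 and 63.6 CPM in ES wt/wt. In dcat/dcat it measured 158, 99.7 and 111 CPM in RS and 64.9, 62.4 and 91.2 CPM in ES. ES libraries lay below RS libraries in both genotypes, and ES dcat/dcat replicate 3 stood above the other ES libraries. The contig fell 1.95-fold in wt/wt (log2 -0.96, SE 0.249, adjusted p = 0.00651) and 1.67-fold in dcat/dcat (log2 -0.74, SE 0.242, adjusted p = 0.0238). Within set B alone the log2 change was -0.71 in wt/wt and -0.39 in dcat/dcat, and within set A it was -1.16 and -1.24. The dcat/dcat call was lost without RS dcat/dcat replicate 1 (log2 -0.52), ES dcat/dcat replicate 1 (log2 -0.65) or ES dcat/dcat replicate 2 (log2 -0.62).

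Clgn-202, which ends 1721 bases before Clgn-201, held 13.8 to 40.8% of the Clgn counts. It was 1.79-fold lower in ES in wt/wt (adjusted p = 0.118) and 1.99-fold lower in dcat/dcat (adjusted p = 0.0739). With the replicate number as a block it was called in wt/wt (log2 -0.81, adjusted p = 0.0428) and in dcat/dcat (log2 -0.94, adjusted p = 0.028). The size depended on single libraries: without ES dcat/dcat replicate 3 the dcat/dcat change was -1.81 and called (adjusted p = 0.00775), without ES dcat/dcat replicate 2 it was -0.63 (adjusted p = 0.27), and without RS wt/wt replicate 3 the wt/wt change was -1.14 and called (adjusted p = 0.0414). Summed by gene, Clgn fell by 0.81 (adjusted p = 0.00691) in wt/wt and fell by 0.69 (adjusted p = 0.0167) in dcat/dcat.

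By counts summed by gene, Calr3 had the largest log2 change of the 9 genes (2.52 in both genotypes). Calr3-201 (chr8:72424176-72443870) measured 46.5, 42.9 and 55 CPM in RS wt/wt and 268, 228 and 194 CPM in ES wt/wt. In dcat/dcat it measured 31, 34.1 and 49.4 CPM in RS and 195, 187 and 172 CPM in ES. All 6 ES libraries were above all 6 RS libraries. The rise was 4.76-fold in wt/wt (log2 2.25, SE 0.22, adjusted p = 3.0e-06) and 4.77-fold in dcat/dcat (log2 2.25, SE 0.226, adjusted p = 5.0e-06). Calr3-202, which begins in another first exon (its start lies at chr8:72435156 on the minus strand), measured 1.66, 5.96 and 5.91 CPM in RS wt/wt and 23.2, 87.5 and 42.4 CPM in ES wt/wt, a rise of 3.48 (log2, SE 0.552, adjusted p = 1.8e-04). In dcat/dcat the RS values were 3.21, 5.24 and 6.59 CPM and the ES values 30.1, 44.9 and 72.6 CPM (log2 3.26, SE 0.558, adjusted p = 3.4e-04). Several RS values of Calr3-202 are near the floor of 3 counts, which was 1.77 to 3.93 CPM in the scaled RS libraries. Its share of the Calr3 counts was 3.45 to 13.3% in RS and 7.97 to 29.7% in ES, and the change of share was not called (adjusted p = 0.515 in wt/wt and 0.576 in dcat/dcat), although with the library set as a block Calr3 was 1 of 2 members called in wt/wt.

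PDILT works with calmegin in the folding of ADAM3. Pdilt-201 (chr7:119486587-119523489), its 1 contig, measured 50.7, 47.7 and 52 CPM in RS wt/wt against 65.5, 64.7 and 63.6 CPM in ES wt/wt. The dcat/dcat libraries gave 58.8, 51.1 and 62.6 CPM for RS and 39.4, 37.5 and 64.2 CPM for ES. The wt/wt groups did not overlap and ES was higher, but the test was not passed (log2 0.36, 95% interval -0.14 to 0.87, adjusted p = 0.237). In dcat/dcat the replicate 3 library of ES stood apart from the other ES libraries, and the change was -0.27 (-0.79 to 0.25, adjusted p = 0.389). The difference between these changes was not called either (log2 -0.63, 95% interval -1.36 to 0.09, edgeR unadjusted p = 0.0817, adjusted p = 1). With total counts alone Pdilt-201 was lower in ES in dcat/dcat (log2 -0.93, adjusted p = 0.0065).

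Ace rose in all of its 3 contigs. Ace-201 (chr11:105967945-105989964, 25 exons) measured 176, 170 and 170 CPM in RS wt/wt and 723, 544 and 607 CPM in ES wt/wt, a 3.63-fold rise (log2 1.86, SE 0.21, adjusted p = 9.4e-06). In dcat/dcat it measured 202, 155 and 194 CPM in RS and 684, 444 and 397 CPM in ES, a 2.76-fold rise (log2 1.46, SE 0.208, adjusted p = 7.7e-05). Ace-202, which starts 7263 bases further inside the gene, measured 29.9, 20.3 and 26 CPM in RS wt/wt and 182, 70.4 and 134 CPM in ES wt/wt (log2 2.31, SE 0.355, adjusted p = 1.4e-04), and its log2 change in dcat/dcat was 1.65 (adjusted p = 0.00211). Ace-203 rose by 1.75 in wt/wt (adjusted p = 0.00327) and by 1.91 in dcat/dcat (adjusted p = 0.0014). In each of these contigs all ES libraries were above all RS libraries.

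The names of the Ace contigs do not by themselves tell the forms of the enzyme apart. Ace-201 has the start of the somatic form and Ace-202 that of the testis form, but they share 2222 bases, 91.9% of Ace-202, and 12 identical exons. Ace-201 also runs 711 bases further at its 3′ end, the end from which direct RNA reads begin. Ace-201 held 65.1 to 80.4% of the Ace counts and Ace-202 9.29 to 18.8%. The share of Ace-203 was 5.95 to 12.5% in set A and 12.4 to 25.2% in set B. No endothelial marker, a source of somatic ACE, had a contig in the table (0 of 7). Leydig, Sertoli and macrophage markers were higher in ES, however, and the part of somatic RNA in the Ace counts was not tested. Shares of the Ace contigs did not pass the test between stages (adjusted p = 0.991 in wt/wt and 0.895 in dcat/dcat).

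The start windows of Calr3 and Ace are shown because both genes rose and both have contigs that begin at separate starts. Each is 300 bases of RefSeq sequence on GRCm38.p6 that ends shortly after an annotated start. Capitals mark matches on either strand to the motifs named under the windows.
Calr3, start of Calr3-201 (chr8:72443729-72444028, minus strand): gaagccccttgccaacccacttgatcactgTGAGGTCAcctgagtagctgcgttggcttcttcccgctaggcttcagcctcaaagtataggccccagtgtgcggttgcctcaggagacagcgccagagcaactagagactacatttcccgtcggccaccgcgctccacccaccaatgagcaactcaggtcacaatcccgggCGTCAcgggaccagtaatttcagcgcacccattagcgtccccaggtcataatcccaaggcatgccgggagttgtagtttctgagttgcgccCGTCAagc
Calr3, start of Calr3-202 (chr8:72435107-72435406, minus strand): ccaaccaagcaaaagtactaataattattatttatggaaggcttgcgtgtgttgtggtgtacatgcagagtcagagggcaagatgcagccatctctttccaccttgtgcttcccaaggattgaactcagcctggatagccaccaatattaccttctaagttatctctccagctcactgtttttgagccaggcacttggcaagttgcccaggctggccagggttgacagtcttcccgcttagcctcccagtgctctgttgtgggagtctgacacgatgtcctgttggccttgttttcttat
Ace, start of Ace-201 (chr11:105967698-105967997, plus strand): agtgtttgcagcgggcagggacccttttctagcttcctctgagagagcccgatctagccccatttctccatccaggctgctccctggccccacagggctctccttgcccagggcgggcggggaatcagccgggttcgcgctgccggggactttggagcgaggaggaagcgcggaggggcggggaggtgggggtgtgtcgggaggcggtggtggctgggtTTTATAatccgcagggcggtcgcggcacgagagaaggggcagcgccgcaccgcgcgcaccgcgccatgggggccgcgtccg
Ace, start of Ace-202 (chr11:105974939-105975238, plus strand): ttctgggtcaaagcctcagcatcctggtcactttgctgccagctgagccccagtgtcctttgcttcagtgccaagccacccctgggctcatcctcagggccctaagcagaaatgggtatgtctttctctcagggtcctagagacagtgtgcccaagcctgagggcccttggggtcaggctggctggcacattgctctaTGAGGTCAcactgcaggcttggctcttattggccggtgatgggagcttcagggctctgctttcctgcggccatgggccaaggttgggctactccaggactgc
TGAGGTCA, a form of the cyclic AMP response element of the kind bound by CREM in spermatids, was found in 2 of 6 member windows, those at the starts of Calr3-201 and Ace-202, and in 2.17% of 32851 windows in all. The full element TGACGTCA was in 0 of 6 and in 1.79% of all windows. TGACG, which is also part of TGACGTCA, was in 1 of 6 (Calr3-201) and in 20.8% of all windows, and TATAAA was in 1 of 6 (Ace-201) and in 13.6%. The other member windows, those of Adam1a and Pdilt, held none of these motifs. The Adam1a window (chr5:121521646-121521945) lies inside Adam1a-201, as the start it was built on is 376 bases from that of the contig. It therefore does not cover the sequence before the start of Adam1a-201. No window was available for Adam2, Adam3, Adam5, Adam32 or Clgn, so no member whose main contig declined was looked at. These matches describe the letters of the windows. Whether the shares in 6 windows differ from those of all windows was not tested, and neither was factor binding.

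**Figure D3:**
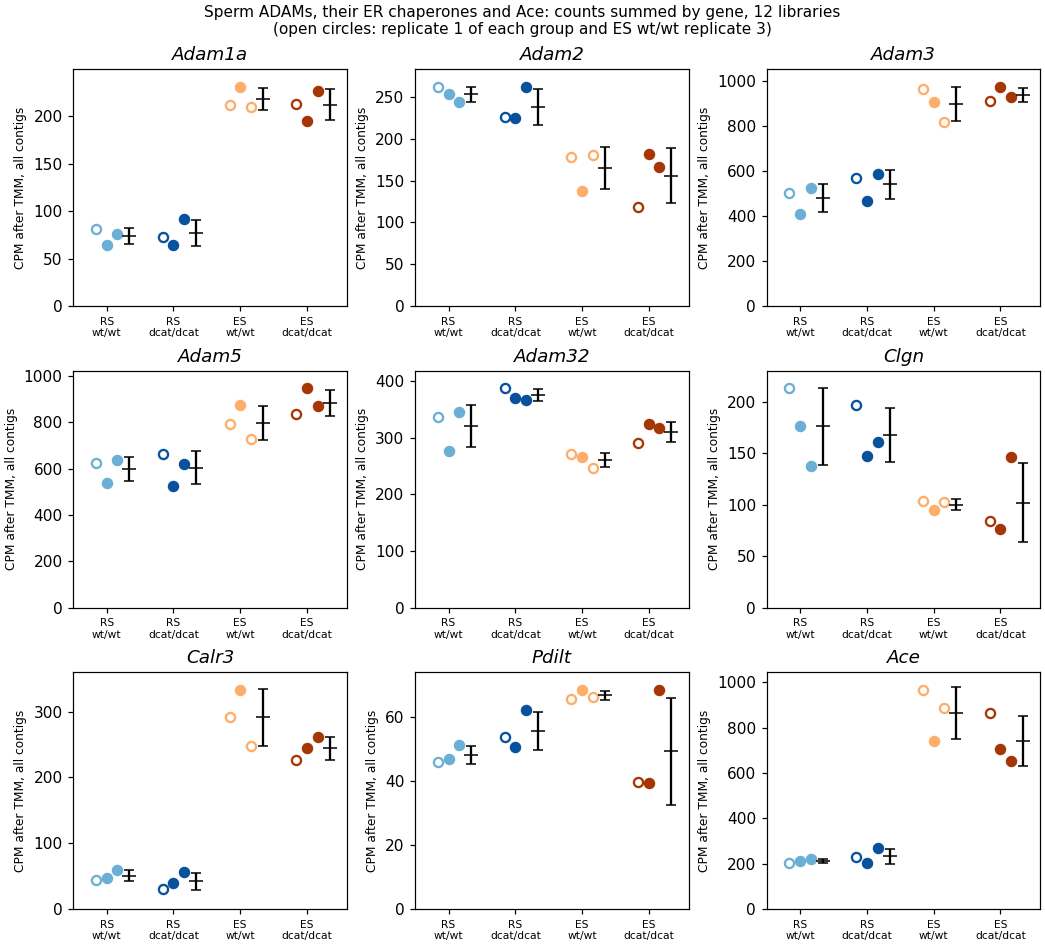
CPM after TMM scaling of counts summed by gene (vertical axes, from 0) for the 9 genes in the 12 libraries, by group; points are libraries, open for set A, and the black bars are the mean and SD of 3 libraries. All ES libraries lie above all RS libraries for Adam1a, Adam3, Adam5, Calr3 and Ace, and in the Pdilt panel 2 ES dcat/dcat libraries (39.8 and 39.5 CPM) lie below the ES wt/wt libraries.

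Contig shares within genes were compared between stages by the diffSplice F test of limma, in which 7 of the 9 genes had several contigs. In wt/wt 0 of 7 passed, where 4.48% of 2589 genes did, and 1 had an unadjusted p under 0.05 (Adam32, adjusted p = 0.313). In dcat/dcat 1 of 7 passed (again 4.48% of all genes), Adam5, with an adjusted p of 0.036. The contig that deviated was Adam5-205 (log2 1.72 against the rest of the gene, adjusted p = 0.0182), and Adam5 lost its call in 5 of 6 fits that left out 1 library, keeping it without RS dcat/dcat replicate 2. Without ES dcat/dcat replicate 1, Adam32 passed in its place. With the replicate number as a block, Adam32 passed as well in dcat/dcat (2 of 7 genes).

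Between dcat/dcat and wt/wt males at the same stage, no member passed the test. This comparison asks whether the level of a transcript depends on TENT5C activity. By edgeR's quasi-likelihood test 0 of 19 contigs were called in RS and 0 in ES, where 0% of all contigs were called in either stage, and DESeq2 called 0 of 19 in both. At an unadjusted p under 0.05 there were 0 members in RS (0.828% of all contigs) and 2 in ES (10.5%, against 3.01% of all contigs). Over the 9 main contigs, log2 differences ran from -0.33 (Calr3-201) to 0.21 (Adam32-202) in RS and from -0.43 (Pdilt-201) to 0.25 (Clgn-201) in ES, with 95% intervals inside -0.98 to 0.82 over both stages. With counts summed by gene the 95% intervals lay between -0.72 and 0.63 in RS and between -0.92 and 0.60 in ES. For Adam3 as a whole the interval was -0.14 to 0.49 in RS and -0.26 to 0.38 in ES.

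**Figure D4:**
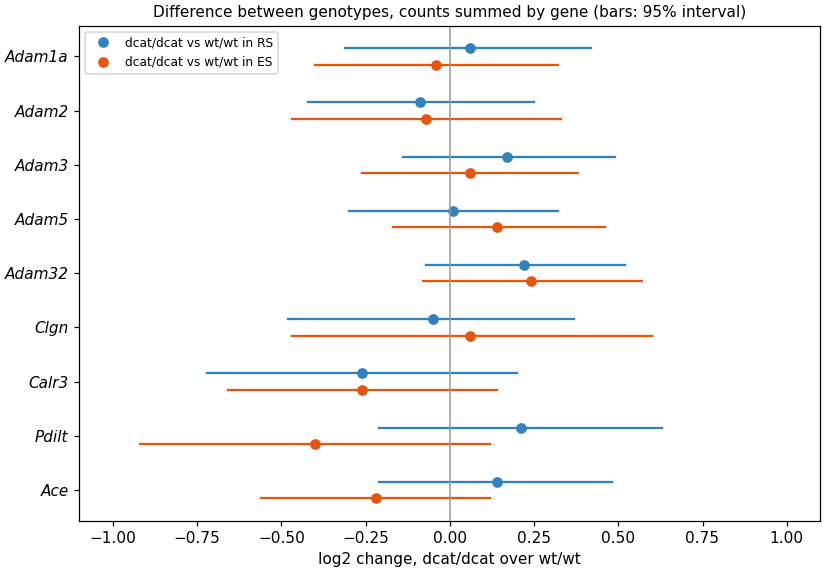
Log2 difference of dcat/dcat over wt/wt in RS (blue) and in ES (orange) for counts summed by gene, with 95% intervals from edgeR. Each interval includes 0, and the bounds farthest from it are -0.72 (Calr3) in RS and -0.92 (Pdilt) in ES.

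The 2 members with an unadjusted p under 0.05 in ES were both minor contigs of chromosome 8 genes. Adam5-205, with its 3 to 5 counts in ES wt/wt and 9 to 16 in ES dcat/dcat, differed by 1.36 (log2, 95% interval 0.38 to 2.34, edgeR unadjusted p = 0.00976, adjusted p = 1). In RS it differed by -0.03. Adam32-205 differed by 1.11 in ES (95% interval 0.08 to 2.15, edgeR unadjusted p = 0.0362, adjusted p = 1), with 12.7, 15.2 and 21.2 CPM in wt/wt and 16.2, 30 and 54 CPM in dcat/dcat. Its RS values were 4.98, 14.3 and 10.1 CPM in wt/wt and 15, 21 and 15.7 CPM in dcat/dcat. Among main contigs, Adam32-202 was the one whose genotypes did not overlap in either stage, with dcat/dcat higher by 0.21 in RS and 0.23 in ES (adjusted p = 1 for both). Groups did not overlap for 2 of 19 members in RS (10.5%, against 5.31% of all contigs) and for 2 in ES (10.5%, against 7.66%).

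Whether the change from RS to ES depended on the genotype was tested by the interaction term. It called 0 of 19 members and 0% of all contigs, with 0 members and 1.44% of all contigs at an unadjusted p under 0.05, and DESeq2 called 0 members. The smallest member p was that of Adam5-205 (log2 1.39, 95% interval -0.02 to 2.80, edgeR unadjusted p = 0.0529). Over the main contigs the interaction ran from -0.63 (Pdilt-201) to 0.22 (Clgn-201).

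Other genes of the same pathway and of related ones were read from the same fit. Of 17 further testis ADAM genes, 15 had a contig each: 4 rose and 5 fell in wt/wt, and 6 rose and 4 fell in dcat/dcat (median log2 -0.09 and 0.40). Those with the smallest adjusted p were Adam4 (log2 1.94, adjusted p = 8.0e-05), Adam6a (1.79, 2.2e-04) and Adam21 (1.82, 3.7e-04) among the risen and Adam18 (-1.48, 4.6e-04), Adam1b (-1.35, 5.8e-04) and Adam30 (-1.38, 0.00108) among the fallen. Both directions were also found over all contigs tested, where 23.8% were higher and 16.5% lower in wt/wt. In dcat/dcat these shares were 24% and 16.9%. They are the background for the counts of each list below as well. Of 11 broadly expressed ADAM genes, such as Adam10 and Adam17, 0 had a contig in the table.

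Other factors that ADAM3 maturation or sperm passage into the oviduct requires had 14 contigs of 9 genes, of which 7 rose and 2 fell in wt/wt and 8 rose and 2 fell in dcat/dcat (median log2 0.73 and 1.27). Prss55 and Prss37 led the risen: Prss55-201 went from 77 ± 16.3 to 416 ± 65.9 CPM (SD, n = 3; adjusted p = 3.2e-06 by edgeR) and Prss37-201 from 95.4 ± 42 to 561 ± 85.7 CPM (adjusted p = 7.5e-06) in wt/wt. Pmis2-202 rose by 2.42 (adjusted p = 6.3e-05). Lypd4-201, which encodes a GPI-anchored sperm protein, fell from 725 ± 79.3 to 389 ± 52.1 CPM (adjusted p = 5.0e-04), and Cmtm2a-201 fell by 0.55 on the log2 scale (adjusted p = 0.00303).

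The general folding machinery of the ER, which all cells use, had 14 contigs of 11 genes: 1 rose and 5 fell in wt/wt and 0 rose and 5 fell in dcat/dcat (median log2 -0.70 and -0.65). In wt/wt the chaperone Hsp90b1-201 fell by 0.84 (adjusted p = 0.00156) and the disulphide isomerase Pdia3-201 fell by 0.72 (adjusted p = 0.00763), while P4hb-201 rose by 1.45 (adjusted p = 0.0231). The oxidase contig Ero1lb-203 fell from a mean of 10.8 to 1.34 CPM in wt/wt (adjusted p = 0.00652), and since the ES mean is below the floor of 3 counts no fold is given. In dcat/dcat neither of these last contigs was called (P4hb-201 log2 0.71, adjusted p = 0.216, and Ero1lb-203 log2 -0.57, adjusted p = 0.414). Calr-201 and Canx-201, the general relatives of CALR3 and calmegin, had wt/wt log2 changes of -0.50 (adjusted p = 0.154) and -0.70 (adjusted p = 0.104). Sperm-egg fusion factors had 10 contigs of 8 genes, of which 2 rose and 1 fell in each genotype: in wt/wt Llcfc1-201 rose by 1.32 (adjusted p = 2.0e-05), 4930451I11Rik-202 rose by 0.90 (adjusted p = 0.031) and Spesp1-201 fell by 1.49 (adjusted p = 4.1e-06). With total counts alone, the wt/wt counts became 4 risen and 7 fallen for the testis ADAM genes, 6 and 4 for the ADAM3 maturation factors, 0 and 11 for the ER machinery, and 1 and 5 for the fusion factors. The whole table moved the same way: of all wt/wt calls, 26.5% were higher with total counts and 59% with TMM. The share of all contigs called each way with total counts is not given. In the genotype and interaction comparisons 0 contigs of these lists were called.

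For each main contig, the contig of another gene with the most similar profile over the 12 libraries was found by the root mean square difference of log2 CPM, each contig centred on its own mean. These differences ran from 0.10 to 0.17. Nrd1-201 was nearest to Adam1a-201, Uba2-201 to Adam2-201, Mprip-202 to Adam3-201, Tcp10c-201 to Adam5-202 and Iqch-201 to Adam32-202. Nearest to the chaperone contigs were Nsun2-201 for Clgn-201, Fxr1-206 for Calr3-201 and Mapk1ip1l-202 for Pdilt-201, and Mapre3-202 was nearest to Ace-201. Log2 changes in wt/wt were, for example, 2.33 for Fxr1-206 beside 2.25 for Calr3-201 and -0.92 for Nsun2-201 beside -0.96 for Clgn-201. They were 0.22 for Mapk1ip1l-202 beside 0.36 for Pdilt-201. The contigs were chosen for similarity over these same libraries, so the closeness of their changes follows from the choice.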

How the data were processed

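RNA of sorted RS and ES was sequenced as native poly(A) RNA on nanopore R9 flow cells. Per the labels, the authors aligned reads with minimap2 2.20-r1061 to mm10 (the study's methods name another version), and per the methods the reference was the GENCODE transcripts and reads had to pass a quality call of the poly(A) tail. The deposited matrix gives unnormalized read counts, as whole numbers, for each contig. The authors also deposited DESeq2 tables, of which only the gene symbol column was used; their fold changes and p-values were not. Reads of 1 gene can be split among overlapping contigs or paralogues, which counts cannot undo.

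Positions came from GENCODE vM21 (GRCm38), which held all 19 members, and start windows from RefSeq. Counts were fitted with edgeR 4.0.16 in R 4.3.3 (TMM, quasi-likelihood, 1 mean per group, all 12 libraries), after keeping the 11831 contigs that reached 10 reads in 2 or more libraries of any group. Adjusted p is Benjamini-Hochberg over all contigs tested, with calls at 0.05 or less. SE is the log2 change over the square root of F. Contig shares were tested with voom and diffSplice of limma 3.58.1, and DESeq2 1.42.0 was an alternative. Scripts were tested on simulated data. Replicate numbers were checked for pairing by correlating the deviations of same-numbered libraries from their group means: they were 0.70, 0.38 and 0.47 for the genotypes in RS and 0.52, 0.25 and 0.29 for the stages in dcat/dcat, 0.40, 0.36 and -0.09 for the stages in wt/wt and 0.45, 0.31 and 0.03 for the genotypes in ES. By this check alone, numbers counted as pairs in the first and the second of these comparisons. Same-numbered libraries were also of the same library set, except for ES wt/wt replicate 3. The lowest correlations, -0.09 and 0.03, were those with that library. The check therefore cannot tell shared mice from the library sets. RS and ES came from the same mice, but which mice made which numbered pool is not given. Floors of 3 counts and 95% intervals cover counting or replicate error only.

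The members, gene lists and tests were chosen with earlier results of these data known. Named were all members, up to 3 called contigs of smallest adjusted p per direction of each related list in wt/wt, and 1 nearest contig per main contig, the one with the most counts; Calr and Canx were named after their values were seen.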

Additional observations from a re-analysis of the deposited data

Results flagged for a closer look

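A contig of the Adam1a locus without a gene symbol in the deposited annotation, Adam1a-202 (chr5:121518613-121545482, 15 exons), was outside the comparisons. It had 0 to 7 counts in the 6 wt/wt libraries and up to 16 in dcat/dcat, in ES dcat/dcat replicate 3, above the floor of 3 counts. The dcat/dcat libraries ran from 0 to 16 counts, so the ranges overlapped. By library set, the counts were 0 to 3 in set A and 3 to 16 in set B, which holds a single ES wt/wt library. The cause of the high value was not tested.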

How the results depend on the processing

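The counts of members called stayed within 1.5 times under other size factors, other filters, DESeq2, the 6 libraries compared, leaving out 1 library (8 to 10 in wt/wt and 9 to 11 in dcat/dcat) and the library sets, except that counts summed by gene gave 7 of 9 genes for dcat/dcat, where there are fewer units to call. Genotype and interaction counts were 0 in every setting run. Numbers of genes with changed contig shares moved: in dcat/dcat to 2 with the replicate block, 2 with the library set as a block, 0 with at least 10 reads in every library, and 0 to 1 without 1 library, and in wt/wt to 2 (Adam32 and Calr3) with the library set as a block. With the replicate number as a block, 13 members were called in wt/wt and 15 in dcat/dcat, and the share of all contigs called with it is not given. The calls gained in wt/wt were those of Adam2-202 (log2 -0.77, adjusted p = 0.0364), Adam5-201 (log2 0.46, adjusted p = 0.0253) and Clgn-202 (log2 -0.81, adjusted p = 0.0428). Whether pools of the same number held the same mice is not given, and the numbers largely followed the library sets. These wt/wt calls and those without the block therefore stand side by side.

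Signs turned with total counts only for Adam5-202 (-0.48 in wt/wt, -0.31 in dcat/dcat), Adam5-201 (-0.26 and -0.16), Adam32-201 (-0.60) and Pdilt-201 (-0.35) in wt/wt, which follows from the shift of all contigs. They also turned for Adam5-202 in wt/wt with at least 10 reads in every library (-0.08), where 3719 contigs and 12 members remained. Adam3-207 turned in wt/wt with the library set as a block (0.40) and in set B (0.59) and in dcat/dcat with the 6 libraries compared (0.00), with leave-one-out ranges of -8.99 to 0.34 and -0.61 to 0.71. The lowest of these is fitted against counts of 0 and is no bound. Adam32-201 in wt/wt turned with the set as a block (-0.11) and in set A (-0.19), and ran from -0.20 to 0.66 without 1 library. Adam5-205 between genotypes in RS ran from -0.38 to 0.24. The cause of these changes beyond the scaling was not tested. Depth limits the minor contigs: Adam5-205, with 3 to 16 counts per library, had a 95% interval from -0.34 to 1.80 (log2) between stages in wt/wt.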
